A study of Homo sapiens with 36 samples.

Results

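Senescent IMR90 ER:RAS cells kept in vehicle were compared at 36 h and at 16 h, which follows an established RAS senescence over 20 h with no drug. IMR90 is a line of fibroblasts from human fetal lung, and ER:RAS is an oncogenic RAS joined to an oestrogen receptor domain, which 4-hydroxytamoxifen (4OHT) activates. Every cell of passage 14 in the series carries this construct. The senescent groups received 100 nM 4OHT and had 6 days in medium with 10% serum, changed on day 3, before the treatment time began. The comparison uses 6 of 36 libraries, 3 of senescent vehicle cells at 36 h and 3 of senescent vehicle cells at 16 h, chosen by their labels, and all 18696 genes that passed a filter on low counts, of 57232 in the table. Further groups of 3 libraries serve as a background. These are proliferating vehicle cells at 36 h and at 16 h, which had no 4OHT by their source labels (another label field counts days after 4OHT for every sample), and senescent and proliferating vehicle cells at 36 h with a caspase inhibitor, whose name and dose the labels do not give. The labels do not tell whether a group's 3 libraries stem from separate cultures, so each p-value reflects library-to-library spread that may be technical only. RNA came from whole cultures, in which fewer cells of a type and less RNA per cell cannot be told apart.

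In oncogene-induced senescence, sustained RAS signalling stops the cell cycle through the CDK inhibitors p21 (CDKN1A), p16 (CDKN2A) and p15 (CDKN2B). The cells stay alive and secrete cytokines, chemokines, growth factors and proteases, together called the senescence-associated secretory phenotype (SASP). Interleukin-1 signals back on the same cells and keeps the transcription factor NF-kB active, which drives much of the SASP. ATF4, another transcription factor, is made when amino acids are scarce or proteins misfold, and switches on genes of amino acid uptake and synthesis.

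The labels were checked first. HRAS, which encodes the H-RAS GTPase, had 1244, 1229 and 1233 CPM (read counts relative to the library's total, scaled by TMM) in senescent cells at 36 h and 1357, 1242 and 1257 CPM at 16 h, against group means of 553 CPM in proliferating cells at both times. CDKN1A stood at 1441 ± 10.1 CPM at 36 h and 1403 ± 50.4 CPM at 16 h (SD, n = 3 each), and LMNB1, a nuclear lamina gene that falls in senescence, at 1.27 CPM at 36 h and 1.03 CPM at 16 h, against 15.3 ± 1.0 CPM in proliferating cells at 36 h. Neither gene, nor any of the 7 tested CDK inhibitors or the 10 tested genes of RAS, RAF, MEK and ERK, was called between 36 h and 16 h in senescent cells (edgeR). At an unadjusted p of 0.05, 0 of the CDK inhibitors and 1 of the RAS pathway genes passed, and DESeq2 called 0 in both lists. Of all 18696 genes, 1910 passed the unadjusted p and DESeq2 called 409. The 11 fibroblast markers summed to 9531 to 9564 CPM at 36 h and 9864 to 10224 CPM at 16 h (marker sums are without TMM scaling). Markers of other cell types were low in both groups. The 10 epithelial ones summed to 35.4 to 41 CPM at 36 h and 39.8 to 45.5 CPM at 16 h, with KRT14, SFTPC and SCGB1A1 at 0. The 9 leukocyte ones summed to 2.78 to 4.29 CPM at 36 h and 3.38 to 3.73 CPM at 16 h, with CD3E at 0.

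Library totals lay between 16895304 and 21446415 counts at 36 h and between 16338542 and 19510933 counts at 16 h. One of these 6 libraries stood apart. Senescent 16 h replicate 1 differed from replicates 2 and 3 of its group by chi-square values of 7.09 and 8.49 per gene, against 1.73 between replicates 2 and 3 and 1.41 to 1.57 among the 36 h libraries, where 1 is sampling noise. Proliferating 16 h replicate 2 differed more, by 90.5 and 51.2 per gene from its mates. Proliferating 36 h replicate 3 differed by 13.8 and 17.9 from its mates, against 5.36 between those. On the first principal component of the 6 senescent libraries, which held 30.2% of the variance, the 36 h libraries lay at 16.2 to 17.8 and the 16 h libraries at -8.96, -9.64 and, for replicate 1, -32.7.

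A modest set of genes moved. With edgeR's quasi-likelihood test and a Benjamini-Hochberg adjusted p of 0.05 over all genes, 287 genes (1.54% of those tested) were called, 142 higher (0.76%) and 145 lower (0.776%) at 36 h. The changes were small, with a median absolute log2 change of 0.5 among called genes and 0.13 among all genes, and only 19 called genes rose and 14 fell by at least 1 on the log2 scale. At all 287 genes the libraries of both times did not overlap. Genes that were not called, such as CXCL8, IL1A and NRAS, did not overlap either. The share without overlap over all genes was not counted, so this adds no support to the calls. The model estimates 1 spread per gene over all 12 groups of the series, which include senescent cells treated with digoxin or ouabain. Fitted on these 6 libraries alone, 614 genes were higher and 479 lower, and 280 of the 287 genes were again called in the same direction. Leaving out any of the 6 libraries brought the count in the joint model to 128, 136 and 148 without 36 h replicate 1, 2 and 3, and to 147, 143 and 137 without 16 h replicate 1, 2 and 3. In all 6 of these fits 82 of the 287 genes were called. Below, a gene is said to be kept in so many of the 6 leave-one-out fits where that number is under 6. Without senescent 16 h replicate 1 and proliferating 16 h replicate 2, 117 genes were higher and 155 lower, and 223 of the 287 were called again.

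**Figure D1:**
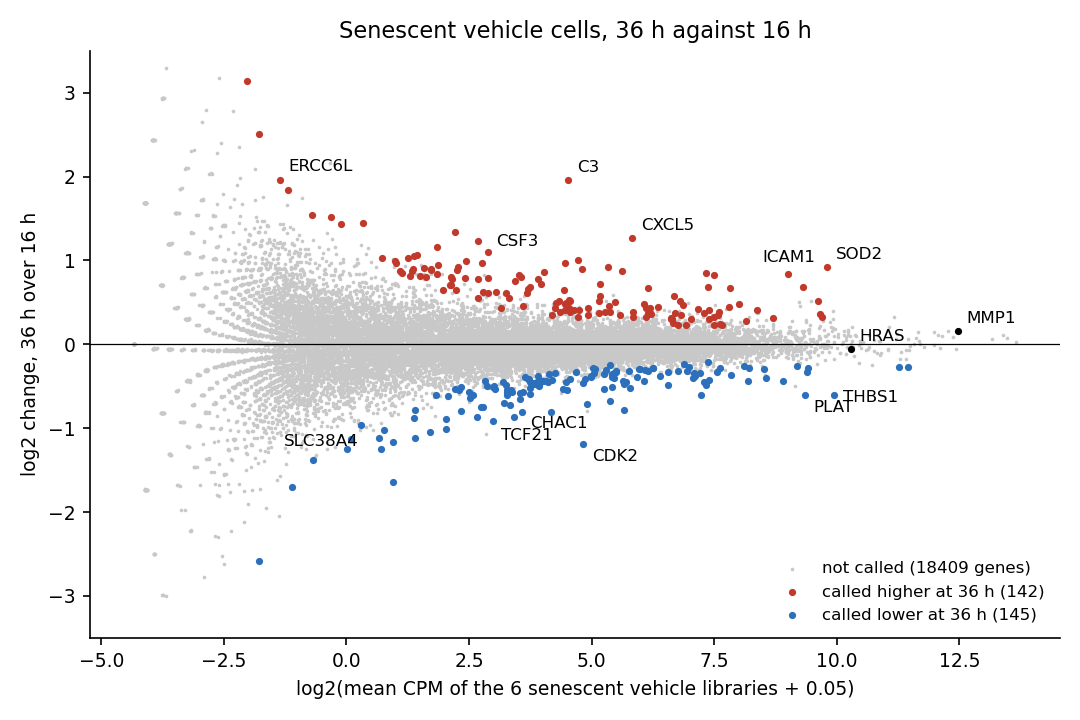
Log2 change of each tested gene between senescent vehicle cells at 36 h and at 16 h, against the log2 mean CPM of the 6 libraries (a constant of 0.05 was added). Red points are the 142 genes called higher and blue points the 145 called lower at 36 h, grey points were not called, and HRAS and MMP1 (black) lie near 0.

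Complement C3, on chromosome 19, had the largest increase among genes with at least 5 CPM. C3 encodes the central protein of the complement cascade. It had 37.3, 36.2 and 36.1 CPM at 36 h, against 9.71, 9.57 and 8.98 CPM at 16 h, which is 3.88-fold higher (log2 change 1.96 ± 0.12 SE, adjusted p = 3.61e-13, edgeR). The 3 libraries of each time lay close together and the times far apart. With the caspase inhibitor, C3 stood at 23.9 ± 0.995 CPM at 36 h, and in proliferating cells at 0.935 ± 0.303 CPM at 36 h and 0.917 ± 0.499 CPM at 16 h.

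CXCL5, CXCL1 and CCL20 were the chemokines called, all higher at 36 h. CXCL5 (chromosome 4), a ligand of the receptor CXCR2, had 87.4, 78.7 and 75.0 CPM at 36 h, against 36.4, 33.8 and 30.3 CPM at 16 h (2.4-fold, log2 change 1.26 ± 0.2, adjusted p = 0.000228). CXCL1, a ligand of the same receptor, had 41.8, 31.0 and 32.6 CPM at 36 h, against 20.4, 16.0 and 16.1 CPM at 16 h. Replicate 1 was the highest library of CXCL1 at both times, and without 36 h replicate 1 the call was lost (log2 change 1.01 ± 0.2, adjusted p = 0.00433, and 0.054 without that library). CCL20, which attracts lymphocytes and dendritic cells through CCR6, had 16.5, 12.3 and 15.9 CPM at 36 h, against 11.7, 7.59 and 6.52 CPM at 16 h. The highest 16 h library of CCL20 nearly reached the lowest 36 h library, and its call (0.8 ± 0.19, adjusted p = 0.0182) was kept in 2 of 6 fits, being lost without 36 h replicate 1 or 3 and without 16 h replicate 2 or 3 (adjusted p up to 0.174). Of 13 tested SASP chemokines, 3 were called higher, against 0.76% of all genes, and none lower. Their median log2 change was 0.49, against -0.01 over all genes.

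Among SASP cytokines and growth factors IL1B, TNFSF15 and CSF3 rose and INHBA and FGF2 fell. IL1B, the secreted inflammatory interleukin-1, had 252, 221 and 222 CPM at 36 h, against 141, 128 and 124 CPM at 16 h (1.77-fold, 0.82 ± 0.1, adjusted p = 2.96e-06). TNFSF15, a TNF-family cytokine, had 210, 209 and 203 CPM at 36 h, against 93.8, 129 and 121 CPM at 16 h, with the library that stood apart as the lowest (0.85 ± 0.11, adjusted p = 1.02e-05). CSF3 encodes G-CSF, which drives neutrophil production. It had 10.9, 9.43 and 9.79 CPM at 36 h, against 4.24, 5.05 and 4.68 CPM at 16 h (2.15-fold, 1.1 ± 0.14, adjusted p = 6.86e-06). INHBA, the subunit of activin A, went the other way with 595, 592 and 611 CPM at 36 h, against 749, 754 and 753 CPM at 16 h (-0.33 ± 0.07, adjusted p = 0.00684). FGF2, a fibroblast growth factor, fell as well, to 177 CPM at 36 h, against 215 CPM at 16 h, a call kept in none of the 6 fits. Of 23 tested SASP cytokines and growth factors, 3 rose and 2 fell, against 0.76% and 0.776% of all genes. Their median log2 change was 0.17, against -0.01 over all genes.

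Several of the best known SASP genes were not called in the joint model of all 12 groups. At an unadjusted p of 0.05, 8 of 13 SASP chemokines and 14 of 23 cytokines and growth factors passed, against 1910 of 18696 genes. DESeq2 called 3 and 6, against 409. Fitted on the compared groups alone, 7 of 12 chemokines were higher and 0 lower. Of 21 cytokines and growth factors, 9 were higher and 5 lower there, against 614 and 479 of 16091 genes. The genes below are given from the joint model. CXCL8 (interleukin-8) had 787, 654 and 672 CPM at 36 h and 590, 517 and 438 CPM at 16 h. The ranges of CXCL8 did not overlap, yet the change of 0.45 ± 0.19 missed the threshold (adjusted p = 0.363). IL6 had 13.9 ± 0.708 CPM at 36 h and 11.4 ± 3.22 CPM at 16 h, with overlapping libraries (adjusted p = 0.663). IL1A, the membrane-bound interleukin-1 upstream of the SASP, had 33.4 ± 2.51 CPM at 36 h and 26.1 ± 0.81 CPM at 16 h (0.35 ± 0.12, adjusted p = 0.18). The interstitial collagenase MMP1, among the most abundant transcripts, had 5970 ± 57.1 CPM at 36 h and 5365 ± 197 CPM at 16 h (adjusted p = 0.706). CCL2, a monocyte chemokine, and MMP3, stromelysin, had log2 changes of 0.35 ± 0.21 and 0.17 ± 0.11.

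**Figure D2:**
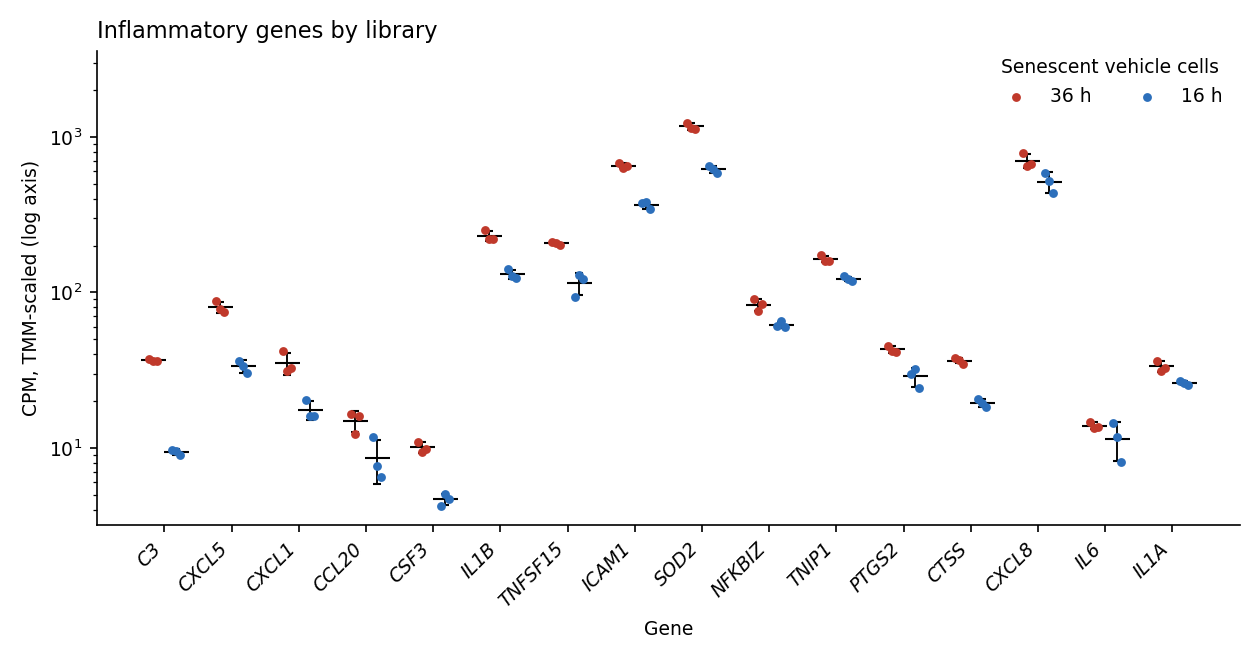
CPM (log axis) of 16 inflammatory genes in each library of senescent vehicle cells, with 36 h left of 16 h for each gene; points are libraries in the order of replicates 1 to 3, and black lines are the mean ± SD of 3. The groups are apart for C3, CXCL5, CSF3, IL1B, ICAM1 and SOD2, while those of IL6 overlap.

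Several genes that NF-kB induces rose, while its subunits were not called. SOD2, the mitochondrial superoxide dismutase (chromosome 6), had 1228, 1150 and 1127 CPM at 36 h, against 652, 618 and 587 CPM at 16 h (1.89-fold, 0.92 ± 0.07, adjusted p = 1.69e-10). ICAM1, the adhesion molecule to which leukocytes bind, had 682, 631 and 652 CPM at 36 h, against 378, 380 and 343 CPM at 16 h (1.78-fold, 0.84 ± 0.12, adjusted p = 3.74e-05). TNIP1, which helps A20 to restrain NF-kB signalling, had 173, 160 and 159 CPM at 36 h, against 127, 122 and 118 CPM at 16 h (0.42 ± 0.08, adjusted p = 0.00151). NFKBIZ encodes IkB-zeta, a nuclear cofactor that many secondary NF-kB genes need. It had 90.3, 75.9 and 84.0 CPM at 36 h, against 60.8, 65.1 and 59.5 CPM at 16 h, with adjusted p = 0.0145, kept in 2 of 6 fits and lost without 36 h replicate 1 or 3 and without 16 h replicate 1 or 3 (up to 0.129). TNFAIP2, a TNF-induced gene, had 23.2 CPM at 36 h, against 17.8 CPM at 16 h, and was kept in none of the 6 fits. The subunits RELA, NFKB1 and RELB had log2 changes of -0.08 ± 0.08, 0.05 ± 0.12 and 0.07 ± 0.12 and were not called. In all, 5 of 17 tested NF-kB genes and feedback inhibitors were higher, against 0.76% of all genes, and none was lower. Of the 17 log2 changes 16 were above 0, against 8798 of the 18696 genes tested. Lists with few or no calls leaned as well. Of 29 lysosomal genes 26 were above 0, and of 55 cytosolic ribosomal protein genes 51 were below 0.

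Of the 5 NF-kB genes called higher, 1 (NFKBIZ) has an NF-kB motif in the stretch around the gene start, and so do 3 of the 5 called SASP chemokines and cytokines with a window in the RefSeq table. It was searched on both strands as GGG, any 2 bases and TTTCC. These stretches are shown because the genes moved together. They come from RefSeq (GRCh38.p14), run 5′ to 3′ on the gene's strand, and have the motif in capitals with 25 bases on either side. CCL20 carries the motif on the opposite strand, at chr2:227813738-227813797 (plus strand), CXCL1 at chr4:73869289-73869348 (plus strand), CXCL5 at chr4:73998734-73998793 (minus strand) and NFKBIZ at chr3:101827742-101827801 (plus strand).
CXCL5: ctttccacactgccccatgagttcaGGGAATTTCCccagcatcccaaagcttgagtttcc
CXCL1: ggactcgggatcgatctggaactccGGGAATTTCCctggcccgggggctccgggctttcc
CCL20: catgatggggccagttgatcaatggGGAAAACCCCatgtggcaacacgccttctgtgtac
NFKBIZ: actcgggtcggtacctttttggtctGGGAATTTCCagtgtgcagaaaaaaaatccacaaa
Of the 137 genes with a symbol called higher, 104 had a promoter window in the RefSeq table (250 bases before to 50 after the gene start), and 8 of these windows (7.69%) held the motif. The others were those of COL7A1, IL32, MIR3142HG and PANX1. Of 108 windows of genes called lower, none did, and among 11725 windows of genes tested and 27305 in the whole table the shares were 2.07% and 1.92%. A match is a run of letters, not a measured site.

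Other genes with large increases have varied roles. EHF, an epithelial ETS transcription factor, had 30.5, 27.7 and 28.7 CPM at 36 h, against 14.2, 15.4 and 14.8 CPM at 16 h (1.95-fold, 0.97 ± 0.14, adjusted p = 5.99e-05). MAN1A1, a mannosidase that trims N-glycans in the Golgi, had 52.9 ± 3.9 CPM at 36 h, against 27.9 ± 1.18 CPM at 16 h (1.89-fold, 0.92 ± 0.08, adjusted p = 1.06e-09). CTSS, the lysosomal protease cathepsin S, had 36.4 ± 1.5 CPM at 36 h, against 19.5 ± 1.21 CPM at 16 h, and was the only one of 29 lysosomal genes called. PTGS2 (cyclooxygenase-2), which makes prostaglandins, had 42.9 ± 2.16 CPM at 36 h, against 28.8 ± 4.03 CPM at 16 h, and was kept in 4 of 6 fits (lost without 36 h replicate 1 or 16 h replicate 3, adjusted p up to 0.136). MYCT1, LINC02392 and FAM177B rose by 0.99, 1.34 and 0.93 on the log2 scale at means under 10 CPM. CES1P1, a pseudogene beside the carboxylesterase CES1, rose by 1.24, and CST1, a cystatin, by 0.97 in 2 of 6 fits. Reads of CES1P1 and CES1, and of CST1 and CST2, can be shared between near-identical copies.

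CDK2 fell more than any other gene with at least 5 CPM. CDK2 (chromosome 12) encodes the kinase that cyclins E and A activate to start DNA replication. It had 18.4, 17.4 and 16.2 CPM at 36 h, against 38.4, 38.6 and 41.4 CPM at 16 h, 2.28-fold lower (-1.19 ± 0.11, adjusted p = 1.17e-08). The groups are far apart and tight. With the caspase inhibitor CDK2 stood at 16.5 ± 1.01 CPM at 36 h, and in proliferating cells at 21.6 ± 1.21 CPM at 36 h and 29.4 ± 1.89 CPM at 16 h. CCNE1, which encodes its partner cyclin E1, had 12.5 ± 0.736 CPM at 36 h and 10.6 ± 0.729 CPM at 16 h and was not called. None of 36 mitosis genes and none of 35 DNA replication genes was called in senescent cells (edgeR). At an unadjusted p of 0.05 these lists held 7 and 5 genes, against 1910 of all 18696 genes. DESeq2 called 1 and 0, against 409 of all genes. The proliferation marker MKI67 had 2.44 CPM at 36 h and 1.46 CPM at 16 h (0.73 ± 0.35, adjusted p = 0.47).

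A number of genes that ATF4 induces, or that supply amino acids, fell. CHAC1, a glutathione-degrading enzyme that ATF4 induces, had 8.26, 8.65 and 9.11 CPM at 36 h, against 16.5, 16.5 and 12.5 CPM at 16 h (1.74-fold lower, -0.8 ± 0.15, adjusted p = 0.00216). SLC7A5 encodes LAT1, the carrier of large neutral amino acids. It had 31.7, 32.0 and 32.6 CPM at 36 h, against 50.1, 54.7 and 48.5 CPM at 16 h (-0.67 ± 0.12, adjusted p = 0.000862). MTHFD2, an enzyme of mitochondrial one-carbon metabolism, had 79.0, 79.4 and 76.3 CPM at 36 h, against 113, 110 and 106 CPM at 16 h (-0.49 ± 0.08, adjusted p = 0.000561). These genes were kept in all 6 leave-one-out fits. SLC7A1, the carrier of cationic amino acids, had 32.1, 31.3 and 29.8 CPM at 36 h, against 40.9, 48.1 and 46.0 CPM at 16 h, kept in 2 of 6 fits (adjusted p up to 0.0863). PCK2, PSPH, TRIB3 and STC2 were each kept in 1 of 6, and PSPH and TRIB3 were also lost with RLE scaling (log2 changes of -0.5, -0.42, -0.42 and -0.26). Of 28 tested ATF4 stress genes, 8 were lower and none higher, against 0.776% of all genes lower, and 3 of the 28 log2 changes were above 0. The list's count fell to 4, 3 and 6 without 16 h replicate 1, 2 and 3. It fell to 4, 3 and 4 without 36 h replicate 1, 2 and 3. ATF4 itself had 114 ± 0.96 CPM at 36 h and 145 ± 10.6 CPM at 16 h (-0.34 ± 0.11, adjusted p = 0.132), and ASNS, asparagine synthetase, had 27.9 and 26.9 CPM.

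Amino acid transporters overlap with that list. Of 18 tested, 4 were lower, against 0.776% of all genes, and none was higher. Besides SLC7A5 and SLC7A1 these were SLC1A4, a carrier of alanine, serine and cysteine (6.52 CPM at 36 h, against 9.31 CPM at 16 h), and SLC38A4, a system A carrier (0.981 CPM at 36 h, against 2.11 CPM at 16 h). The last 2 were each kept in 3 of 6 fits. In the upstream stretch of CHAC1 (GRCh38.p14, chr15:40953237-40953294, plus strand) the element TGATGNAA, which ATF4 and C/EBP proteins bind, lies on the opposite strand, shown in capitals with 25 bases on either side.
CHAC1: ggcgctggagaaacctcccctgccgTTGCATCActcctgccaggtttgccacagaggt
Of the 7 windows found for the 8 fallen ATF4 genes, 2 held this element, those of CHAC1 and SLC7A1. Over all genes called lower and all called higher, 2.78% and 2.88% of windows held it, against 1.94% of windows of genes tested and 3.67% of the whole table.

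Some genes of the extracellular matrix fell and others rose. PLAT, the tissue plasminogen activator, had 519, 511 and 515 CPM at 36 h, against 805, 796 and 754 CPM at 16 h (1.52-fold lower, -0.61 ± 0.1, adjusted p = 0.000196). TIMP3, a matrix-bound inhibitor of metalloproteinases, had 122, 115 and 120 CPM at 36 h, against 179, 185 and 181 CPM at 16 h (-0.61 ± 0.1, adjusted p = 0.000203). THBS1, thrombospondin-1, had 772, 781 and 793 CPM at 36 h, against 1140, 1190 and 1245 CPM at 16 h (-0.61 ± 0.1, adjusted p = 0.000561). With the caspase inhibitor THBS1 stood at 1097, 1119 and 1071 CPM at 36 h. Of 19 tested matrix proteases and inhibitors, PLAT and TIMP3 fell and MMP10, stromelysin-2, rose (0.41 ± 0.1, kept in 1 of 6 fits). Over all genes, 0.776% fell and 0.76% rose. TNC, tenascin-C, rose to 920 ± 11.5 CPM at 36 h, against 644 ± 75.7 CPM at 16 h, and PAPPA, a protease of IGF-binding proteins, to 276 ± 5.92 CPM at 36 h, against 173 ± 25.3 CPM at 16 h. Both calls were lost without 16 h replicate 1 (adjusted p = 0.113 for TNC and 0.0632 for PAPPA), which was their lowest library.

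TCF21, a mesenchymal transcription factor of the developing lung, had 5.25, 5.66 and 5.47 CPM at 36 h, against 9.77, 10.6 and 10.6 CPM at 16 h (1.89-fold lower, -0.92 ± 0.13, adjusted p = 4.45e-05), and was the only one of 10 lung fibroblast transcription factors called. FST, follistatin, which binds activin, had 37.9, 37.4 and 36.2 CPM at 36 h, against 65.4, 63.8 and 62.3 CPM at 16 h (-0.78 ± 0.13, adjusted p = 0.000328). CDK15, a little studied kinase, had 2.7 ± 0.267 CPM at 36 h, against 5.42 ± 0.27 CPM at 16 h (-1.01 ± 0.16, adjusted p = 0.000174). LYPD1, PTGER2 (a receptor of prostaglandin E2), SH2D4A and RPS6KA6 (the kinase RSK4) fell by 0.87, 0.79, 0.81 and 0.75 on the log2 scale. PRKG2, a cGMP-dependent kinase, fell by 0.87 in 4 of 6 fits and DIAPH3, an actin-nucleating formin, by 0.74 in 2 of 6.

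**Figure D3:**
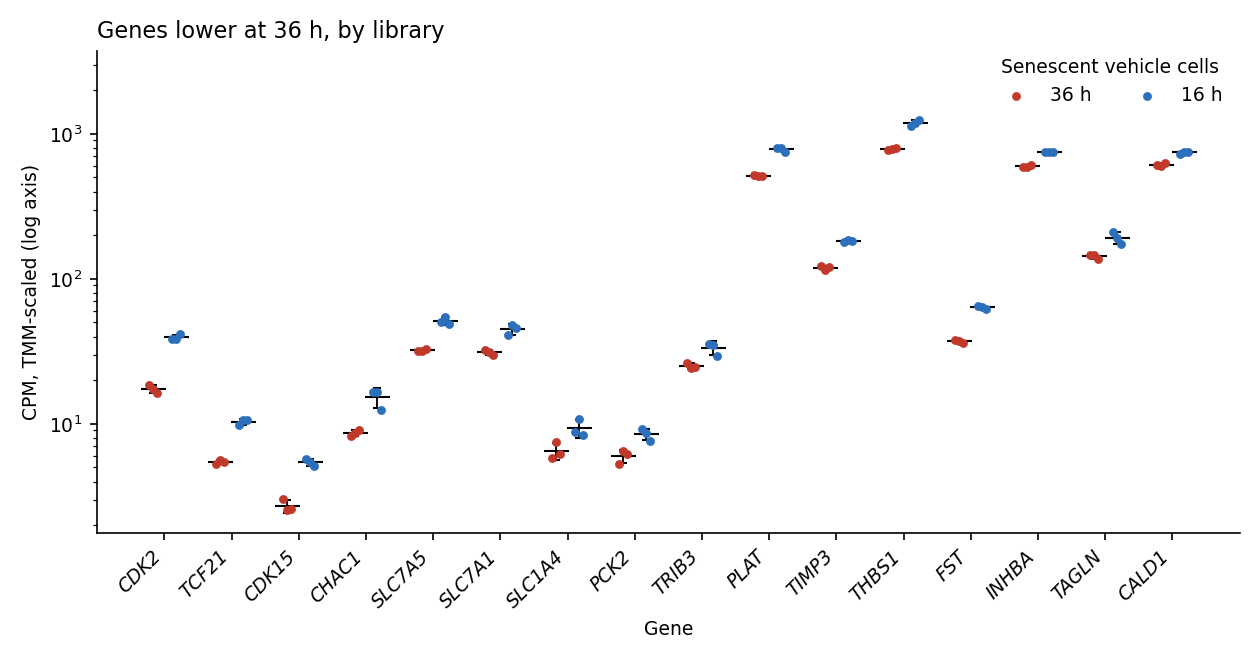
CPM (log axis) of 16 genes lower at 36 h in each library of senescent vehicle cells, with 36 h left of 16 h for each gene; points are libraries in the order of replicates 1 to 3, and black lines are the mean ± SD of 3. CDK2 lies at 16.2 to 18.4 CPM at 36 h and 38.4 to 41.4 CPM at 16 h.

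Of 16 contractile genes tested, TAGLN (143 ± 5.05 CPM at 36 h, against 192 ± 17.2 CPM at 16 h), TPM1 (322 and 426 CPM) and CALD1 (614 ± 13.4 and 745 ± 12.2 CPM) were lower and none was higher. Over all genes, 0.776% were lower. The list had a median log2 change of -0.31, against -0.01 over all genes. CALD1, the caldesmon of actin filaments, was kept in all 6 leave-one-out fits, and TAGLN and TPM1 in none. ACTA2, the smooth muscle actin of myofibroblasts, had 85.2 CPM at 36 h and 108 CPM at 16 h (-0.35 ± 0.1, adjusted p = 0.0825). ANKRD1, a target of the coactivator YAP, was the only one of 16 YAP targets called, at -0.57 ± 0.15 and in none of the 6 fits. In the WNT list of 15, WNT16, a ligand, was lower (7.53 CPM at 36 h, against 12.4 CPM at 16 h) and so was SFRP1, a secreted inhibitor (327 CPM at 36 h, against 401 CPM at 16 h, in 1 of 6 fits).

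A few genes of the endoplasmic reticulum and of lipid synthesis were called, all higher at 36 h. Over all genes, 0.76% were higher. HSPA5, the chaperone BiP, had 913, 911 and 901 CPM at 36 h, against 739, 680 and 705 CPM at 16 h (0.36 ± 0.08, adjusted p = 0.0118), and HYOU1, another chaperone of that compartment, 178, 191 and 188 CPM at 36 h, against 149, 155 and 149 CPM at 16 h. Both were kept in 2 of 6 fits, and reads of HSPA5 can be shared with its pseudogene HSPA5P1. These were the genes called among 19 of the unfolded protein response, of which DESeq2 called 6, against 409 of all 18696 genes. LPIN1, a lipid phosphatase, had 299 ± 5.98 CPM at 36 h, against 214 ± 16.9 CPM at 16 h (0.48 ± 0.08, adjusted p = 0.000401). Of 23 cholesterol synthesis genes, 3 were higher, among them HMGCS1, which makes HMG-CoA, at 143 CPM at 36 h, against 116 CPM at 16 h, and LSS, lanosterol synthase, at 109 CPM at 36 h, against 88.7 CPM at 16 h. HMGCS1 was kept in none of the 6 fits and LSS in 1 (adjusted p up to 0.201 and 0.217), and scaling by library size ended the call of LSS.

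Single members of other lists passed. With 1.54% of all genes called, a single member is not a result about its list. DUSP5, a nuclear phosphatase of ERK, was the only one of 20 MAP kinase feedback genes called, with 167 CPM at 36 h, against 210 CPM at 16 h, in 1 of 6 fits, while DUSP6 and SPRY4 had log2 changes of -0.04 ± 0.08 and -0.28 ± 0.09. COL7A1 was the only one of 21 collagen genes (27.9 CPM at 36 h, against 19.4 CPM at 16 h, in 1 of 6 fits), BHLHE41 of 18 clock genes, KDM3A of 28 glycolysis and hypoxia genes, and SRSF2 of 18 splicing genes, with log2 changes of 0.46, 0.33 and -0.33 and calls kept in 1, 4 and 0 of 6 fits. Of 18 NRF2 targets AKR1C1 was higher (0.49 ± 0.13, kept in 0 of 6 fits) and GCLM lower (-0.33 ± 0.08, kept in 1), and of 13 IGF ligands and binding proteins PAPPA and PAPPA2 (kept in 2) were higher. Among 26 interferon-stimulated genes 0 were called, 4 passed an unadjusted p of 0.05 (against 1910 of all 18696 genes) and DESeq2 called 1 (against 409). The same numbers were 0, 6 and 0 for 27 p53 targets, and 0, 0 and 0 for 55 cytosolic ribosomal protein genes and for 5 BCL2 survival genes. The ribosomal protein genes had a median log2 change of -0.1, against -0.01 over all genes.

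Proliferating vehicle cells passed through the same interval without 4OHT. There, 1522 genes (8.14%) were called, 565 higher (3.02%) and 957 lower (5.12%). Those libraries were noisier, and fitted alone they gave 84 calls, 50 higher and 34 lower. Of the 142 genes that rose in senescent cells, 26 also rose and 8 fell in proliferating cells, and of the 145 that fell, 55 also fell and 5 rose. CHAC1 and SLC7A5 moved alike in both states, with log2 changes of -0.8 and -0.67 in senescent cells and -0.85 and -0.8 in proliferating cells. Their list did not. Of the 28 ATF4 stress genes, 3 were higher and 4 lower in proliferating cells, against 0 higher and 8 lower in senescent cells. The list's median log2 change was 0.06 in proliferating and -0.22 in senescent cells. Whether a gene's change differed between the states was tested gene by gene.

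**Figure D4:**
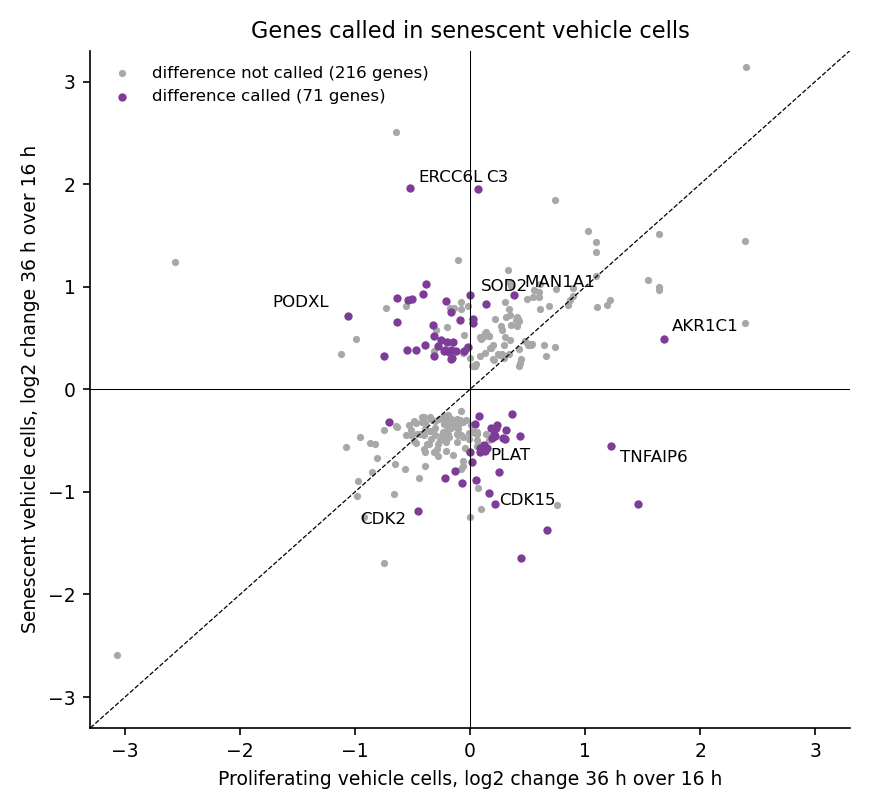
Log2 change between 36 h and 16 h of the 287 genes called in senescent vehicle cells (vertical axis) against their change in proliferating vehicle cells (horizontal axis), with 1 gene outside the axes. Purple points are the 71 genes whose change differed between both states, grey points the other 216, and the dashed line marks equal change.

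The time change differed between senescent and proliferating cells at 399 genes (2.13%), 229 with a higher (1.22%) and 170 with a lower change (0.909%) in senescent cells. Of these, 71 were among the 287 genes. SOD2 was at 254 CPM at both times in proliferating cells, so that its change was 0.91 ± 0.1 higher in senescent cells (adjusted p = 7.8e-07). C3 differed by 1.89 ± 0.32 (adjusted p = 0.000466). Of the 17 NF-kB genes and feedback inhibitors, 6 had a higher change in senescent cells and none a lower one. NFKBIZ (difference 0.83, adjusted p = 0.00132) and TNIP1 (0.7, adjusted p = 0.000138) fell in proliferating cells, by 0.4 and 0.28. ICAM1, TNFAIP2 and TNFAIP3 (the ubiquitin-editing enzyme A20) were the others, and TNFAIP3 had 24.6 CPM at 36 h and 19.1 CPM at 16 h in senescent cells, which was not called (adjusted p = 0.0822). Most SASP chemokines and cytokines stood under 1 CPM in proliferating cells, which leaves the difference wide, as for CXCL5 (1.37 ± 0.75, adjusted p = 0.446).

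PODXL, a sialomucin of the cell surface, had 44.5, 42.6 and 46.6 CPM at 36 h and 25.2, 27.9 and 28.2 CPM at 16 h in senescent cells, against 7.33 ± 0.993 CPM at 36 h and 15.4 ± 3.28 CPM at 16 h in proliferating cells. It rose in senescent and fell in proliferating cells (difference 1.78 ± 0.2, adjusted p = 8.23e-07). CDK2 fell in both, and by 0.74 ± 0.16 more in senescent cells (adjusted p = 0.00549). PLAT, TCF21 and CDK15 had log2 changes of 0.08, -0.07 and 0.16 in proliferating cells, and TIMP3 stood there at 398 CPM at both times. Their differences of -0.69, -0.85, -1.17 and -0.61 were called. HSPA5 and HYOU1 differed by 0.54 and 0.46. Other genes with a called difference were called in proliferating cells but not in senescent cells. HAS2, a hyaluronan synthase, had 14.8 CPM at 36 h and 15.4 CPM at 16 h in senescent cells, against 9.63 and 27.0 CPM in proliferating cells (difference 1.42). CDKN2B had 222 and 234 CPM in senescent cells, against 28.9 and 17.7 CPM in proliferating cells (difference -0.78). COL3A1, a fibrillar collagen, had 169 and 160 CPM in senescent cells, against 1135 and 623 CPM in proliferating cells (difference -0.78).

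**Figure D5:**
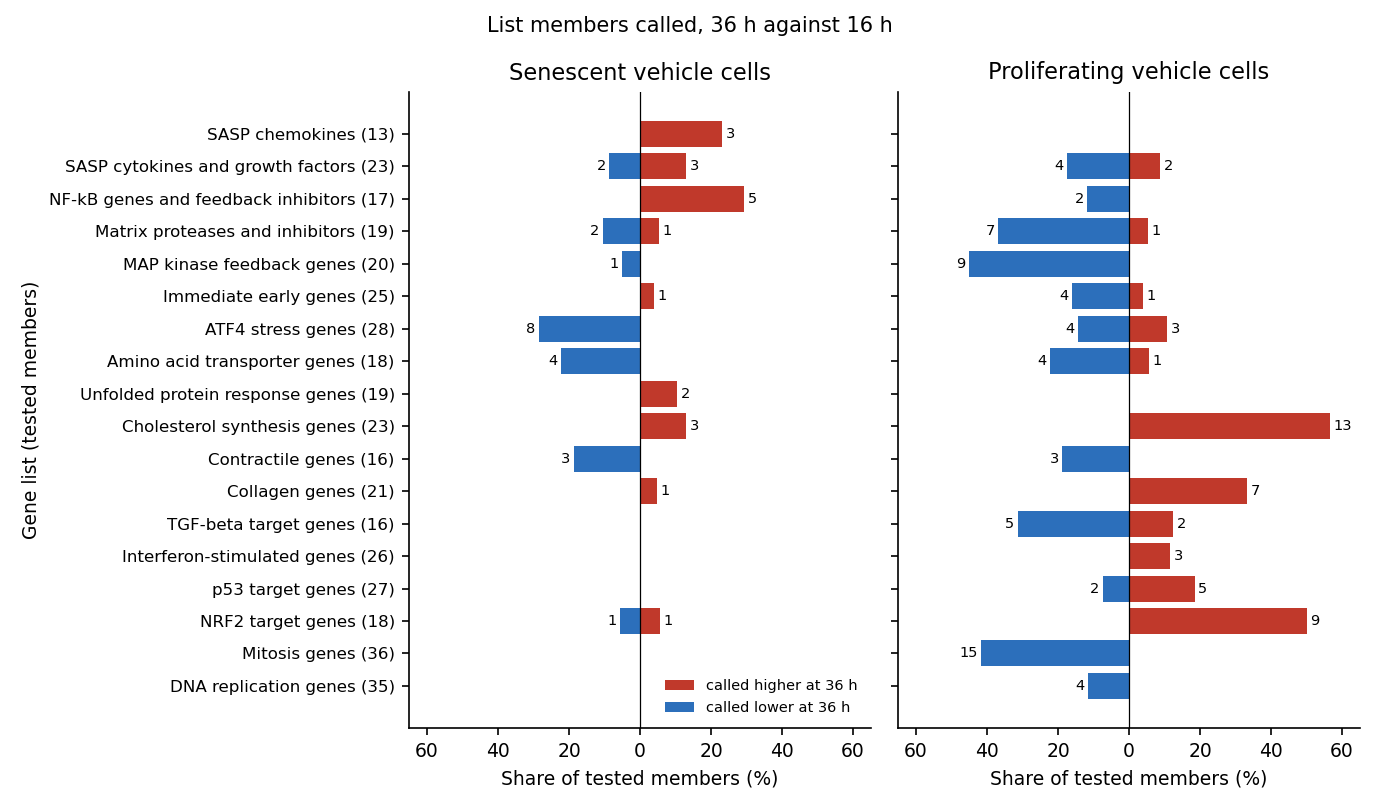
Share of tested members of 18 gene lists called higher (red, to the right) and lower (blue, to the left) at 36 h against 16 h, in senescent (left panel) and proliferating vehicle cells (right panel); numbers at the bars are members, and numbers in brackets are members tested. In senescent cells 5 of 17 NF-kB genes were higher and 8 of 28 ATF4 genes lower, while the 15 mitosis genes and 13 cholesterol synthesis genes were called in proliferating cells. Over all genes, 0.76% were higher and 0.776% lower in senescent cells, and 3.02% and 5.12% in proliferating cells.

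Lists were called to different extents. In proliferating cells 15 of 36 mitosis genes and 9 of 20 MAP kinase feedback genes were lower, against 5.12% of all genes. There, 13 of 23 cholesterol synthesis genes and 7 of 21 collagen genes were higher, against 3.02% of all genes. In senescent cells these numbers were 0, 1, 3 and 1, with 0.776% of all genes lower and 0.76% higher. Proliferating 16 h replicate 2, which stood apart, had 123 CPM of MKI67, against 47.7 and 69.0 CPM in replicates 1 and 3. Fitted alone, the proliferating groups gave 50 genes higher and 34 lower. No mitosis gene, cholesterol synthesis gene or, in the higher direction, collagen gene had a called difference, while 3 collagen genes had a lower and 2 MAP kinase feedback genes a higher change in senescent cells. For that difference, 0.909% of all genes had a lower and 1.22% a higher change.

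The genes that moved were set beside the senescent state itself in libraries that the comparison does not use, senescent against proliferating cells at 36 h with the caspase inhibitor. In that contrast 9787 genes (52.3%) were called, 4979 higher (26.6%) and 4808 lower (25.7%) in senescent cells. Of the 142 genes that rose with time, 101 (71.1%) were higher and 23 (16.2%) lower in senescence. Of the 145 that fell, 84 (57.9%) were lower and 37 (25.5%) higher. Read from the other side, of the genes higher in senescence 2.03% rose and 0.743% fell, and of those lower in senescence 0.478% rose and 1.75% fell. C3, IL1B, TNFSF15 and ICAM1 were higher in senescence by 4.58, 7.59, 8.6 and 5.35 on the log2 scale, and TCF21, CDK15 and THBS1 lower, with -1.91, -2.99 and -1.27. PLAT (1.73) and INHBA (2.05) were higher in senescence and fell with time, while MAN1A1 (-0.48) was lower and rose. Scaling by library size in place of TMM moved this contrast's median by -0.15 and its split to 3642 higher and 6052 lower.

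Senescent cells at 36 h with the caspase inhibitor were set against the same 16 h libraries, where 2250 genes (12.0%) were called, 1347 higher (7.2%) and 903 lower (4.83%). As the comparisons share the 16 h libraries, values are given side by side. SOD2 had 932 ± 11.6 CPM with the inhibitor at 36 h and 1168 ± 53.3 CPM without it at 36 h, against 619 ± 32.3 CPM at 16 h. CXCL5 had 51.2 ± 3.02, 80.4 ± 6.4 and 33.5 ± 3.08 CPM in the same order, and IL1B 157 ± 4.02, 232 ± 17.4 and 131 ± 8.47 CPM. NFKBIZ and TNIP1, at log2 changes of 0.43 and 0.42 without the inhibitor, had -0.01 each with it, and CSF3, at 1.1 without it, had 0.19. Of the 17 NF-kB genes and feedback inhibitors, 2 were higher and 1 lower with the inhibitor. Their median log2 change was -0.01 with it and 0.25 without it. Of the 13 SASP chemokines, 2 were higher and 0 lower with it, and their median was 0.12, against 0.49 without it. CDK2, TCF21, SLC7A5 and CHAC1 fell by 1.26, 0.88, 0.95 and 1.09 on the log2 scale with the inhibitor, and by 1.19, 0.92, 0.67 and 0.8 without it.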

How the data were processed

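Per the labels' protocols, RNA for the 36 libraries was purified by TRIzol and RNeasy, and a stranded mRNA kit was used. The authors deposited raw counts for each gene, made with TopHat2 2.0.11 and featureCounts on hg19, per the submitters' processing notes. How strand was set in counting, and which annotation was used, is not given in the sources used here. Of 57232 gene IDs, 51058 were named from a symbol table, 309 from GENCODE, and 5865 had no name.

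Counts were filtered by group (filterByExpr), scaled by TMM and fitted with edgeR 4.0.16 (limma 3.58.1, R 4.3.3) as 12 group means over all 36 libraries, those of digoxin- and ouabain-treated cells included, and the quasi-likelihood test was adjusted by Benjamini-Hochberg over all genes, two-sided. The 5 comparisons were 36 h against 16 h in senescent vehicle cells, in proliferating vehicle cells and in senescent cells with caspase inhibitor at 36 h, the difference between the first pair, and senescent against proliferating cells with inhibitor. Standard errors (± after log2 changes) divide the log2 change by the root of its F statistic, and become unreliable for low genes near 0. CPM values are TMM-scaled, with SD over 3 libraries, except the marker sums, which are relative to the library's total without TMM scaling. Library totals of the 6 libraries lay between 16338542 and 21446415 counts, and depth and the number of libraries both limit the precision.

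Named are a fixed panel, per direction the 12 called genes of largest change with at least 5 CPM and no overlap between libraries, up to 4 called members of each of 53 gene lists with at least 1 CPM, and per direction the 6 called genes whose change differed most between senescent and proliferating cells, with at least 5 CPM. CCNE1, FGF2, STC2, MTHFD2, PSPH, TRIB3, TNFAIP2, TNFAIP3, ATF4, ASNS, RELA, NFKB1, RELB, IL32, MIR3142HG and PANX1, and the genes of the closing section outside the rule, were chosen after their values were seen. The members and lists were chosen with earlier results of these data known. Of the lists, CCL5, MMP12, UHRF1 and 7 other members could not be matched. Near-identical copies can share reads. Alternatives were DESeq2 1.42.0, RLE and library-size scaling, no filter, a replicate block, leaving out each library, and fits restricted to the groups compared. Added after seeing the data were fits of the 18 vehicle libraries, without senescent 16 h replicate 1 and proliferating 16 h replicate 2, and of the compared groups without the former. Scripts were tested on simulated data. Some genes are not reported here. Figures were drawn with matplotlib 3.10.9.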

Additional observations from a re-analysis of the deposited data

Results flagged for a closer look

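The change between 36 h and 16 h differed between senescent and proliferating vehicle cells at 399 genes, by the test of the difference in the edgeR model. The named genes among them, each with the change in senescent cells minus that in proliferating cells on the log2 scale, are given here. A higher change in senescent cells was found at ERCC6L (2.48), THBD (2.01), C3 (1.89), PODXL (1.78), RAPGEF4 (1.43), HAS2 (1.42), FAM177B (1.34), MMP1 (0.98), SOD2 (0.91), NFKBIZ (0.83), TNIP1 (0.70), ICAM1 (0.69), BHLHE41 (0.66), MAN1A1 (0.54), HSPA5 (0.54) and HYOU1 (0.46).

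A lower change in senescent cells was found at SECTM1 (-3.22), TNFAIP6 (-1.78), COL14A1 (-1.75), TMEM119 (-1.67), SCN7A (-1.65), AKR1C3 (-1.62), SLC38A4 (-1.33), AKR1C1 (-1.20), CDK15 (-1.17), SH2D4A (-1.06), TCF21 (-0.85), CDKN2B (-0.78), COL3A1 (-0.78), CDK2 (-0.74), PLAT (-0.69), PTGER2 (-0.66), LYPD1 (-0.65) and TIMP3 (-0.61).

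ERCC6L, a helicase of mitotic chromosomes, had 0.548 CPM at 36 h and 0.134 CPM at 16 h in senescent cells, against 3.71 and 5.34 CPM in proliferating cells, so the senescent values rest on few reads. SECTM1 was under 0.3 CPM in senescent cells at both times. TNFAIP6, a hyaluronan-binding protein, was lower at 36 h in senescent cells (8.31 CPM, against 12.2 CPM at 16 h, kept in none of the 6 leave-one-out fits) and higher at 36 h in proliferating cells (1.29 CPM, against 0.515 CPM). AKR1C1 and AKR1C3, reductases of a family whose members can share reads, were higher at 36 h in proliferating cells. AKR1C1 had 69.2 CPM at 36 h there, against 21.5 CPM at 16 h.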

How the results depend on the processing

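No called gene of the 287 changed sign in any alternative, and 281 kept the call with DESeq2, 271 with RLE scaling, 270 with scaling by library size, 265 with the replicate block and 194 without the filter on low counts. Total counts of called genes that moved by over 1.5 times follow. In a fit of the compared groups alone, the count for senescent vehicle cells was 1093, and 2355 when 16 h replicate 1 was also left out; for proliferating cells it was 84, for the difference between the states 186, and for senescent cells with the inhibitor 4682. Leaving out 1 library gave 128 to 148 calls in senescent cells, 994 to 2612 in proliferating cells, 264 to 1098 for the difference and 1021 to 1806 with the inhibitor. The counts moved in both directions, and the cause was not tested. Leaving out proliferating 16 h replicate 1 gave the highest counts, 2612 and 1098. Scaling by library size turned the split to 663 higher and 722 lower in proliferating cells, against 565 and 957, to 156 and 210 for the difference, against 229 and 170, and to 764 and 1544 with the inhibitor, against 1347 and 903. With DESeq2 the split for the difference was 380 and 215. Of the lists, the ATF4 stress genes had 4 lower members in the fit of the 18 vehicle libraries, against 8, and 12 in the fit of the compared groups alone, where 13 cholesterol synthesis genes were higher, against 3, and 0 without the filter. Without the filter the split was 181 and 114 in senescent cells and 798 and 817 with the inhibitor.

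Deviations from the group means were correlated between both times, which cannot tell whether same-numbered samples were paired. Same-numbered senescent libraries correlated at 0.0232, -0.00593 and 8.26e-05. In proliferating cells same-numbered libraries correlated at -0.207, 0.257 and 0.23, and differently numbered ones at -0.443 to 0.396. The replicate block gave 272 calls in senescent cells, 1495 in proliferating cells, 395 for the difference, 2189 with the inhibitor and 9745 for senescence. Of the 104 genes named by rule, TAGLN, TNFAIP6 and ERCC6L lost the call under the block, and so did PSPH and TRIB3 outside the rule. Genes under about 1 CPM rest on few reads per library.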

Other observations

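Called genes outside the lists were looked at after their values were seen. They were picked one by one, and no list of them was tested. ZC3H12A, an endonuclease that degrades cytokine transcripts, had 21.5, 20.9 and 20.9 CPM at 36 h, against 13.6, 11.2 and 10.1 CPM at 16 h (log2 change 0.86 ± 0.12, adjusted p = 2.12e-05, edgeR), and its change was 1.07 higher than in proliferating cells. IRAK2, a kinase of the interleukin-1 receptor complex, had 46.7 CPM at 36 h, against 35.7 CPM at 16 h, while it fell in proliferating cells by 0.55 (difference 0.94, adjusted p = 8.1e-06). IRAK3, the inhibitory member of that family, had 3.15 CPM at 36 h, against 1.55 CPM at 16 h, and MAP3K8, a kinase between NF-kB and ERK signalling, 3.08 and 1.75 CPM. POU2F2, a transcription factor best known from B cells, had 63.8 ± 4.42 CPM at 36 h, against 34.8 ± 3.44 CPM at 16 h, and fell by 0.54 in proliferating cells (difference 1.41, adjusted p = 8.71e-06). IRAK2 lost its call without 16 h replicate 2 (adjusted p = 0.0576), IRAK3 in 4 leave-one-out fits (up to 0.216) and MAP3K8 in 5 (up to 0.133).

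Other called genes were lower at 36 h. ACTB, the cytoplasmic beta-actin, had 2567, 2526 and 2497 CPM at 36 h, against 3245, 2969 and 2969 CPM at 16 h (-0.27 ± 0.06, adjusted p = 0.00436, and 0.0672 without 16 h replicate 1), and ACTG1, the gamma-actin, 2253 CPM at 36 h, against 2715 CPM at 16 h, kept in none of the 6 leave-one-out fits. Both also fell in proliferating cells, by 0.42 and 0.4, and can share reads with each other. WWTR1, which encodes the coactivator TAZ, had 115, 118 and 112 CPM at 36 h, against 149, 153 and 153 CPM at 16 h (-0.4 ± 0.06, adjusted p = 0.000162). CAVIN1 and CAV2, structural proteins of caveolae, had 532 and 120 CPM at 36 h, against 636 and 151 CPM at 16 h, and were kept in none of the 6 leave-one-out fits. ADM2, a peptide hormone gene, had 1.04, 0.966 and 0.727 CPM at 36 h, against 2.79, 3.4 and 2.32 CPM at 16 h (-1.65 ± 0.23, adjusted p = 4.2e-05).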
